A study of Mus musculus with 8 samples.

Results

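Pluripotency transcription factor genes were examined in lists of DNA double-strand breaks (DSBs) from mouse embryonic stem (ES) cells. The 10 genes, Pou5f1, Sox2, Nanog, Klf4, Esrrb, Zfp42, Tfcp2l1, Prdm14, Sall4 and Tbx3, were taken by name from the GENCODE M1 annotation of mm9, which holds 22380 protein-coding genes on the chromosomes used here. The symbols of 9 were found directly, and Tfcp2l1 was found under its earlier symbol Tcfcp2l1. Breaks were mapped by DSB-seq, in which DNA ends in fixed nuclei receive biotin from terminal transferase and the labelled DNA is captured and sequenced. Cells of 2 genotypes were compared. Chd1Δ/Δ cells, an established line called Chd1 KO here, have both alleles of the chromatin remodeler Chd1 deleted. Control cells were Chd1fl/Δ, so they too carry 1 deleted allele beside a floxed one, although the sample titles call them WT. All were ES cells grown in serum with LIF. Each genotype had 2 replicates, which were combined before peaks were called, so each genotype has 1 list and no value below has a replicate error.

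The Chd1 KO list held 5671 peaks and the control list 54. Each peak has a summit, the base with the most reads after each read was extended to 200 bp. The lowest local background was 3.18 extended reads in Chd1 KO and 2.95 in control, which corresponds to about 29800000 and 27600000 reads in the combined libraries. Listed summits had at least 13 extended reads in Chd1 KO and at least 17 in control, with medians of 21 and 27.5. The identity of the cells could not be checked with marker genes, because the lists hold break sites of DNA and no expression.

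Pou5f1 (Oct4), Sox2 and Nanog encode the core regulators of pluripotency, which bind enhancers together and keep up each other's transcription. Klf4, Esrrb, Zfp42 (Rex1), Tfcp2l1, Prdm14, Sall4 and Tbx3 encode partners of this core, several of them downstream of LIF, and most mark the naive state. All are active in ES cells in serum with LIF, although Nanog, Esrrb, Zfp42 and others vary from cell to cell there.

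Chd1 KO summits lay at a transcription start site (TSS) of Sox2 and Klf4 and of none of the other 8 genes. With a summit within 1 kb of any TSS counted, this was 2 of 10 genes, or 20% (Wilson 95% interval 5.67 to 51.0%, which covers counting error only). Among all protein-coding genes 3560, or 15.9%, had such a summit, so the share of the pluripotency factor genes was near that of genes at large. The call depends on the window. From 1 kb before to 100 bp after a TSS, the window of the paper, Sox2 was not counted and Klf4 only through an internal TSS. This gives 1 of 10 genes beside 10.3% of all. Summits were used here, while the paper assigned peaks with HOMER. The midpoint of the Klf4 peak lay 98 bp after the outermost TSS, inside this window, and that of the Sox2 peak 343 bp after, outside it. No control summit lay within 1 kb of a TSS of the 10 genes, so that by counting alone a share of up to 30% was possible, and the share among all protein-coding genes was 0% too. The same 2 summits were the only ones inside the gene bodies, again 2 of 10 genes, beside 15.3% of all genes in Chd1 KO. Control summits in the gene body were found at 0 of the 10 genes and at 0.0313% of all genes, or 7 genes.

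Within 50 kb of either end of the gene, Pou5f1 and Nanog had 1 Chd1 KO summit each in addition. This made 4 of 10 genes with 4 summits, or 40% (16.8 to 68.7%), against 41.9% of all protein-coding genes. No control summit came within 50 kb of the 10 genes, where 0.147% of all genes, 33 in number, had one. The control summit closest to any of the genes lay 2634 kb from Pou5f1, and the next closest 6584 kb from Klf4.

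**Figure D1:**
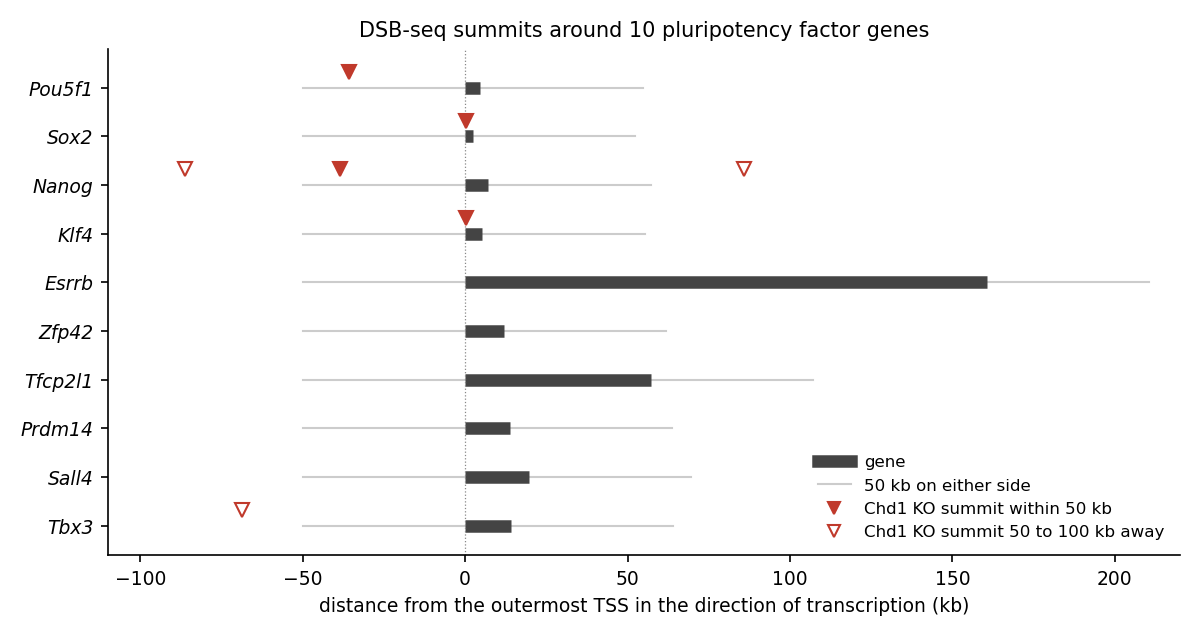
Chd1 KO summits (triangles) around the 10 genes, placed by their distance in kb from the outermost TSS in the direction of transcription, with the gene as a thick bar and 50 kb on either side as a thin line. Sox2 and Klf4 have a summit at the start of the gene, Pou5f1 and Nanog have 1 summit 35.8 and 38.5 kb upstream, and open triangles at Nanog and Tbx3 lie between 50 and 100 kb away.

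Sox2 encodes the HMG box partner of Oct4 and is a gene with a single coding exon. It spans chr3:34548927-34551383 on the plus strand (ENSMUSG00000074637.3), inside the longer noncoding gene Sox2ot. The Chd1 KO peak covered chr3:34549151-34549390, with its summit at position 34549252, in the 5' UTR and 194 bp downstream of the nearest of 3 TSSs (325 bp from the outermost). At the summit 17 extended reads stood over a background of 3.28, a fold enrichment of 4.21 with a −log10 p of 7.86 and a −log10 q of 4.28. Fold enrichment here and below has 1 added to both the reads and the background, so it is lower than their plain ratio. The 240 bp of the peak were 75% GC. It held the longest uninterrupted run of G and C within 1 kb of any Sox2 TSS, 28 bp with its centre 63 bp from the summit, and a run of 19 bp lay just upstream of the summit, ending at 34549248.

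Klf4 encodes a zinc finger factor of the KLF family, whose members recognize GC-rich sequence. It spans chr4:55540013-55545347 on the minus strand (ENSMUSG00000003032.7). The Chd1 KO peak covered chr4:55545114-55545384, with its summit at 55545219, also in the 5' UTR, 106 bp downstream of the nearest of 4 TSSs (128 bp from the outermost). Its summit had 18 extended reads over a background of 3.78, a fold enrichment of 3.97 with a −log10 p of 7.66 and a −log10 q of 4.11. The peak was 77.1% GC over 271 bp, and the 200 bp around the summit were 81.0% GC, against 76.0% at the Sox2 summit. Its longest GC run, 19 bp, ended at the base before the outermost TSS, and the longest within 1 kb, 22 bp, lay at -210 outside the peak.

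The sequences that carry these features are shown 5′ to 3′ in the direction of the gene, from mm9. For Sox2 the run of 28 bp under the peak and for Klf4 the run of 19 bp at the TSS are given in full, followed by the 250 bp upstream of each outermost TSS with every run of at least 12 bp in capitals, 3 in Sox2 and 5 in Klf4.
Sox2 run under the peak, chr3:34549301-34549328: GGCGGCCGCCGGCGGGCCGCGCCCGCCC
Klf4 run at the TSS, chr4:55545348-55545366: GCGCGCGGCGGCCGCCGGC
Sox2 upstream, plus strand, chr3:34548677-34548926: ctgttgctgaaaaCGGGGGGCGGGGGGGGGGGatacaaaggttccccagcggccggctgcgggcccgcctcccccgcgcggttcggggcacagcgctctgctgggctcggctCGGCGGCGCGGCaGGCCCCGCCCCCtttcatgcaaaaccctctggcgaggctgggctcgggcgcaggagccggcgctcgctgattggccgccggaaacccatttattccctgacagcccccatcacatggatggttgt
Klf4 upstream, minus strand, chr4:55545348-55545597: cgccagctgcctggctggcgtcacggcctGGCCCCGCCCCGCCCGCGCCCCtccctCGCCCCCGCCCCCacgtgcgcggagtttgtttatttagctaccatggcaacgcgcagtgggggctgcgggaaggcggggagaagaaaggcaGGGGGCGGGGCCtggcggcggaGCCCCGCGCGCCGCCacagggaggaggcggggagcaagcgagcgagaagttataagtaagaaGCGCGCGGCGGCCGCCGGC
These stretches were 70.8% GC in Sox2 and 74% GC in Klf4. The runs in capitals mix G and C in Klf4 and in part of Sox2, while the Sox2 run at -228 is G on the plus strand except for 2 C.

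Both summits were among the weaker ones at start sites. Of 3673 Chd1 KO summits within 1 kb of any annotated TSS, the median had 21 extended reads (quartiles 19 and 24) and a fold enrichment of 4.53. Fewer reads than at Sox2 were found at 320 of them (8.71%), and fewer than at Klf4 at 561 (15.3%). By fold enrichment 33.9% stood at or below Sox2 and 21.6% at or below Klf4. A minimum fold enrichment of 5 removed both genes, leaving 0 of the 10 with a summit at a TSS beside 4.87% of all protein-coding genes.

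The absence of control peaks at Sox2 and Klf4 cannot be read as fewer reads there. The control list ended at a −log10 p of 7.13 and the Chd1 KO list at 4.88, and both Chd1 KO summits passed the stricter of these values. Scaled by the ratio of the lowest backgrounds, 0.927, the Sox2 summit would have 15.8 reads at control depth and the Klf4 summit 16.7. Up to 15 and 16 reads, at backgrounds scaled in the same way, would stay under the lowest p-value in the control list. A control signal nearly as high as that in Chd1 KO may therefore have gone unlisted at these sites. The limit used is only the lowest p-value seen among the 54 control peaks. That list ended at a −log10 q of 2.54, stricter than the authors' limit of 0.05 on q, so a weaker site might still have been listed. For the summits near Pou5f1 and Nanog the gap was wider, 21.3 reads at control depth for each against a limit of 16.

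**Figure D2:**
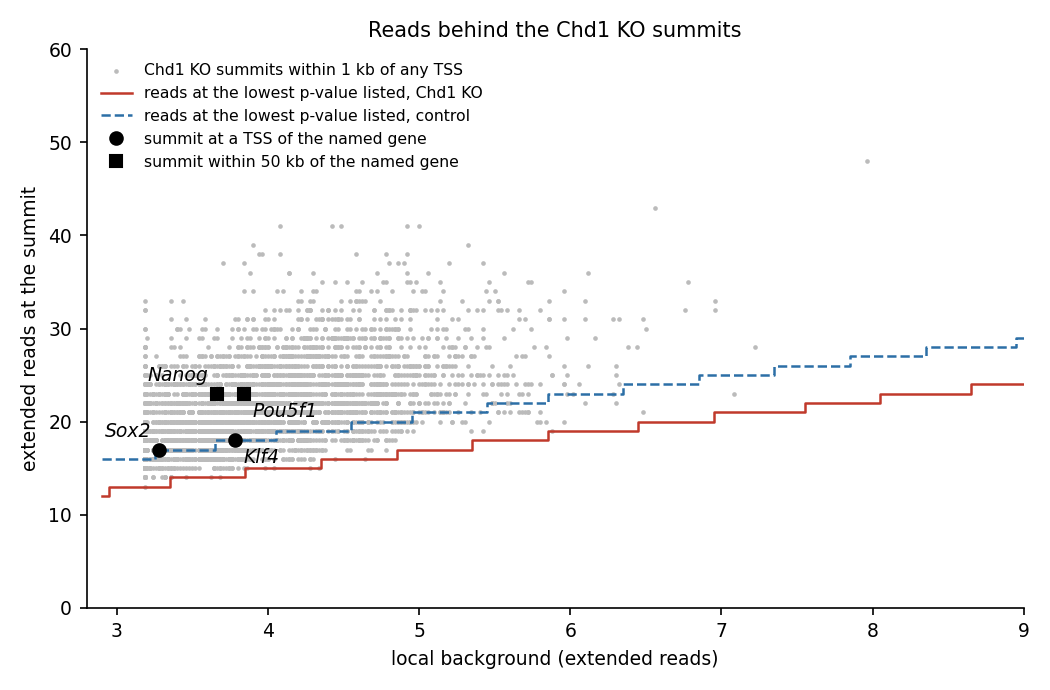
Extended reads at the summit against the local background, for Chd1 KO summits within 1 kb of any TSS (grey) and for the 4 summits named by gene. The lines give the reads that reach the lowest p-value listed in Chd1 KO (solid) and in control (dashed), and Sox2 with 17 reads and Klf4 with 18 lie on the dashed line.

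Pou5f1 (chr17:35642982-35647721, plus strand, ENSMUSG00000024406.9) had its summit 35.8 kb upstream, at chr17:35607028-35607298, with 23 extended reads over 3.84 and a fold enrichment of 4.96. This summit lay 103 bp downstream of a TSS of H2-Q10, a class I gene of the major histocompatibility complex, so it was a start site summit of a neighbouring gene. Nanog (chr6:122657507-122664651, plus strand, ENSMUSG00000012396.5) had its summit 38.5 kb upstream, at chr6:122618878-122619104, with 23 extended reads over 3.66 and a fold enrichment of 5.15. No annotated gene covered it, and the nearest TSS, that of the pseudogene Gm10420, was 27.0 kb away. Nanog itself was the nearest protein-coding gene by TSS. The 150 bp around each summit are shown on the plus strand, with the longest GC run of the peak in capitals, because these peaks differ in sequence.
Summit near Pou5f1, at H2-Q10, chr17:35607070-35607219: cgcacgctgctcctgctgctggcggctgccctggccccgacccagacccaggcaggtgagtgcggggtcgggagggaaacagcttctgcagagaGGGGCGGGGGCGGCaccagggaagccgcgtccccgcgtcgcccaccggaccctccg
Summit near Nanog, chr6:122618883-122619032: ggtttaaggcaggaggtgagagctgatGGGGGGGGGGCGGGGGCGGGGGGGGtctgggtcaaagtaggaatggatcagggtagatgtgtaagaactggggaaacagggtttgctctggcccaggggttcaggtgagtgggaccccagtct
The peak at H2-Q10 was 76.8% GC with a longest run of 14 bp. The peak upstream of Nanog was 58.1% GC, and its run of 25 bp, made of G except for 2 C, had its centre 36 bp from the summit.

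Other Chd1 KO summits came within 100 kb of Nanog and Tbx3. At Nanog the first lay 78.7 kb downstream of the gene, in Slc2a3 and 523 bp upstream of a TSS of the pseudogene Gm4482. It had a fold enrichment of 4.95 and a GC run of 31 bp. The other lay 86.3 kb upstream of Nanog, 5.19 kb from the TSS of Dppa3, with a fold enrichment of 4.80. At Tbx3 (chr5:120120678-120134733, plus strand, ENSMUSG00000018604.11), a T-box repressor gene, the summit lay 68.6 kb upstream with 22 extended reads and a fold enrichment of 5.28. It was outside annotated genes, and Tbx3 was the nearest protein-coding gene.

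The other 5 genes had no summit of either list within 100 kb, a distance at which 55.1% of all protein-coding genes had a Chd1 KO summit and 0.241% a control summit. Within 20 kb only Sox2 and Klf4 had a Chd1 KO summit, 2 of 10 genes against 29.4% of all. The nuclear receptor gene Esrrb (chr12:87702067-87862578, plus strand, ENSMUSG00000021255.10) is the longest of the 10 at 160.5 kb, and its nearest Chd1 KO summit was 255 kb away. Zfp42 (chr8:44380422-44392363, minus strand, ENSMUSG00000051176.5), which encodes a zinc finger protein used as a marker of naive cells, lay farthest from one, 1227 kb. The distance was 328 kb for Tfcp2l1 (chr1:120524522-120581744, plus strand, ENSMUSG00000026380.9), a grainyhead-like factor gene, and 167 kb for Prdm14 (chr1:13103538-13117244, minus strand, ENSMUSG00000042414.7), which encodes a PR domain repressor. It was 354 kb for Sall4 (chr2:168573832-168593443, minus strand, ENSMUSG00000027547.11), a zinc finger factor gene. These genes therefore differed widely in how isolated they were from listed break sites.

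The 10 promoters covered a wide range of base composition, and Sox2 and Klf4 stood at its GC-rich end. GC content within 1 kb of the outermost TSS had a median of 53.0% over the 10 genes and 51.1% over all protein-coding genes. Klf4 was highest with 64.6% and Sox2 next with 62.9%, above 97.4% and 95.3% of all protein-coding genes. Tbx3 (59.0%) and Pou5f1 (58.1%) followed. Tfcp2l1 (53.1%), Prdm14 (52.8%) and Esrrb (52.8%) were near the middle of all genes, and Sall4 (47.4%), Nanog (46.6%) and Zfp42 (44.6%) were below it. Genes with a Chd1 KO summit at a TSS had a median of 58.6% (quartiles 54.9 and 62.1%), and genes without one had 49.8% (44.5 and 54.2%).

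By the longest GC run within 1 kb of any TSS, Sox2 and Klf4 again stood first, while the order of the other 8 genes was not that of GC content. It was 28 bp in Sox2 and 22 bp in Klf4, the only runs of at least 20 bp among the 10 genes, whose median was 14 bp. Such a run was present in 4162 of all protein-coding genes (18.6%), whose median was 13 bp. Sall4 had 18 bp and Esrrb 17 bp, in both near a TSS other than the outermost. Prdm14 and Tbx3 had 14 bp, Pou5f1 and Tfcp2l1 12 bp, and Nanog and Zfp42 11 bp. Among all genes, the longest run had a median of 22 bp (quartiles 18 and 26) with a Chd1 KO summit at a TSS and 11 bp (8 and 15) without. When 1 A or T was allowed inside a run, 5 of the 10 genes reached 20 bp, Esrrb, Prdm14 and Sall4 with Sox2 and Klf4, beside 41.2% of all protein-coding genes.

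CpG content ordered the genes differently from GC content. The ratio of observed to expected CpG within 1 kb of the outermost TSS was 0.861 in Klf4, 0.816 in Tbx3 and 0.806 in Sox2. All 3 exceed the ratio of 0.6 often used to define a CpG island, and they held 179, 142 and 159 CpG. Pou5f1, with a GC content close to that of Tbx3, had a ratio of 0.264 and 44 CpG. Esrrb (0.302) and Nanog (0.314) were as low, and Tfcp2l1, Zfp42, Sall4 and Prdm14 lay between 0.470 and 0.580. Among all genes with a ratio from 0.8 up to 1.0, 61.5% of 1771 had a Chd1 KO summit at a TSS, so Tbx3 without one was in the smaller share of its class. Among those from 0.2 up to 0.4, where Pou5f1, Nanog and Esrrb belong, it was 3.29% of 4772. The outermost TSS does not stand for all TSSs of Esrrb and Sall4. At Esrrb TSSs 60527 and 60766 bp downstream, near its longest run, the ratio was 0.604 and 0.652 and GC content 57.5 and 58.9%. The outermost Sall4 TSS belongs to a transcript that is not protein-coding. At other TSSs the ratio reached 0.719 and, at a different one, GC content reached 57.2%. Among all genes with a ratio from 0.6 up to 0.8, 30.1% of 5722 had a Chd1 KO summit at a TSS.

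**Figure D3:**
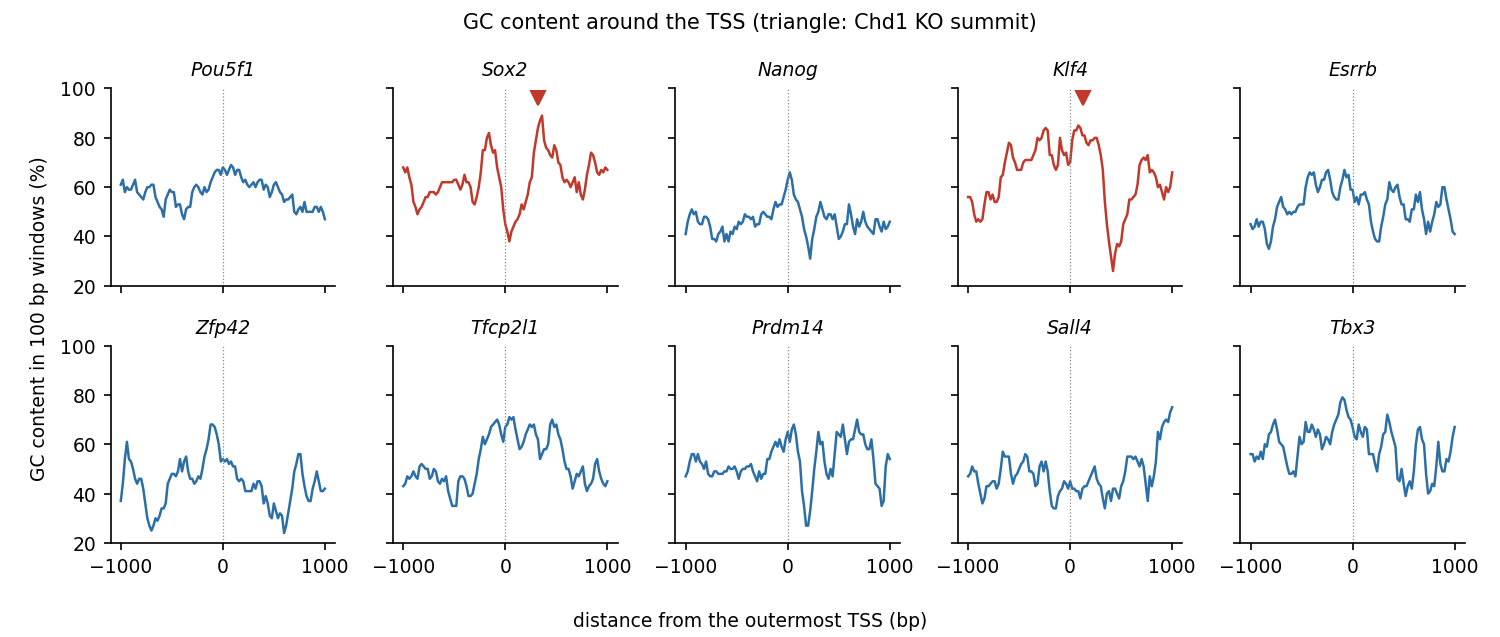
GC content in 100 bp windows (%) against the distance from the outermost TSS (bp) for each of the 10 genes, red where a Chd1 KO summit (triangle) lay within 1 kb. The highest windows reach 89.0% in Sox2 and 85.0% in Klf4, close to their summits, 79.0% in Tbx3, and 75% or less in the other 7 genes.

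Genes were also classed by GC content and longest run together, and the share with a Chd1 KO summit at a TSS was read for the class of each of the 10. With GC of at least 60%, it was 74.5% of 936 genes with a run of at least 24 bp, the class of Sox2, and 64.5% of 586 genes with 20 to 23 bp, that of Klf4. It was 16.8% of 1156 genes in the class of Esrrb and 11.5% of 471 in that of Sall4. Pou5f1 and Tbx3 shared a class with 10.9% of 1252 genes, and Tfcp2l1 and Prdm14 one with 6.54% of 2048. In the class of Nanog it was 0.180% of 2772 genes and in that of Zfp42 0% of 4520. At the GC content of their most GC-rich TSS, Esrrb and Sall4 would instead have 55 up to 60% GC with 16 to 19 bp. In that class it was 27.5% of 1271, although the classes place all other genes by GC content at the outermost TSS. The run of 18 bp in Sall4 lies near other TSSs, however. Around its most GC-rich TSS alone the longest was 14 bp, which is the class with 10.9% of 1252 genes. Summits were thus found at the 2 genes whose classes had shares of 64.5% or more, and at none of the other 8. The classes of these 8 had shares of 27.5% or less by either placement.

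**Figure D4:**
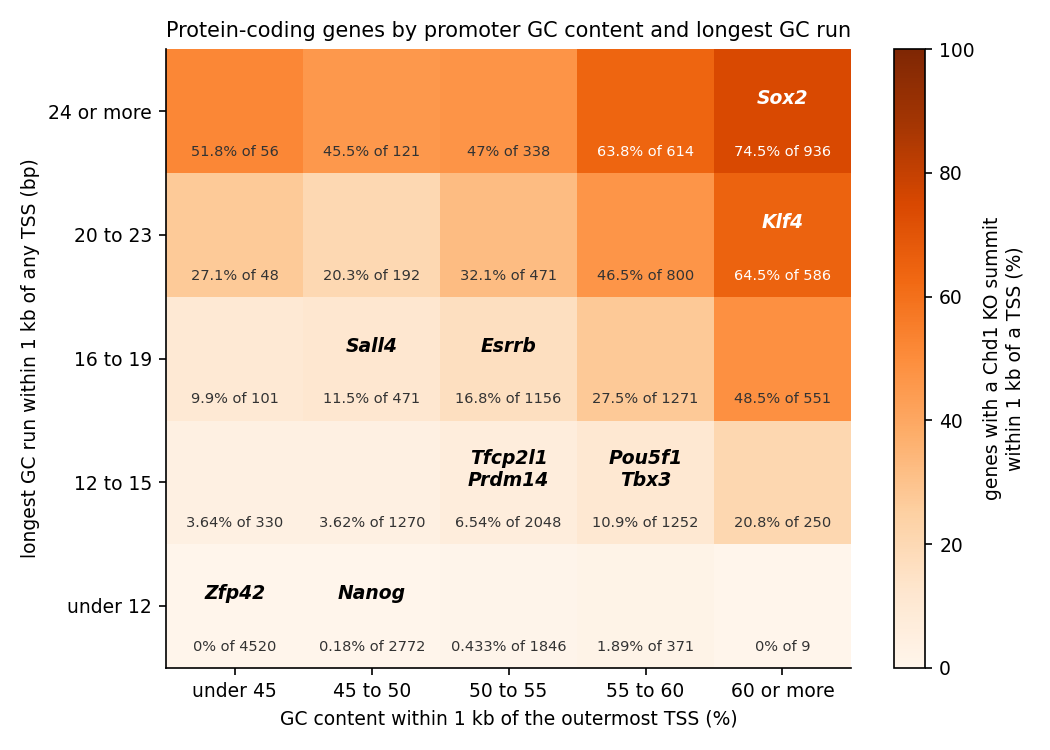
Share of protein-coding genes with a Chd1 KO summit within 1 kb of a TSS (%, colour) by GC content within 1 kb of the outermost TSS (%) and longest GC run within 1 kb of any TSS (bp), with the number of genes in each class. Sox2 (74.5%) and Klf4 (64.5%) are in the classes with the highest shares among those that hold 1 of the 10 genes.

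A run of 12 letters was common to Pou5f1, Sox2 and Klf4. The upstream sequences of Pou5f1, Tbx3, Nanog and Zfp42, without a summit at a TSS, are shown for comparison with Sox2 and Klf4 above. Those of Esrrb, Tfcp2l1, Prdm14 and Sall4 are not shown. Capitals mark the longest run within 250 bp upstream of the outermost TSS.
Pou5f1 upstream, plus strand, chr17:35642882-35642981: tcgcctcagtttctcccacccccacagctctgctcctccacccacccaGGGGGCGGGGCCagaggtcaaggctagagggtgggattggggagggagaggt
Tbx3 upstream, plus strand, chr5:120120414-120120513: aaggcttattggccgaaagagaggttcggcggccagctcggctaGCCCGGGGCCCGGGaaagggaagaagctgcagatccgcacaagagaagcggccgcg
Nanog upstream, plus strand, chr6:122657307-122657406: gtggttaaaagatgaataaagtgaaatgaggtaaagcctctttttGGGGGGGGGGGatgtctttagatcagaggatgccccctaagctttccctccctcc
Zfp42 upstream, minus strand, chr8:44392404-44392503: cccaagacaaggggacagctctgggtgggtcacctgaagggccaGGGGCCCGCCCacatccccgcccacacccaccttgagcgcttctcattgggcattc
The Pou5f1 run, GGGGGCGGGGCC at -47, was present in Klf4 at -97 and, on the other strand, in Sox2 at -120. On either strand it was found within 1 kb of the outermost TSS in 3 of the 10 genes and in 2.45% of all protein-coding genes, 548 in number. Among the 6640 genes with a GC content of at least 55% it was 5.51%. A Chd1 KO summit lay at a TSS of 201 of the 548 genes (36.7%, Wilson 95% interval 32.7 to 40.8%), and Pou5f1 is one of those without. With a GC content of at least 55% it was 45.1% of 366 genes with the run (40.1 to 50.2%). It was 39.6% of 6274 without it (38.4 to 40.8%), and these intervals overlap. With less GC it was 19.8% of 182 with the run (14.6 to 26.2%) and 5.61% of 15558 without it (5.26 to 5.98%). Genes with these letters have a longest run of at least 12 bp by definition, while those without include genes with shorter runs. In the classes under 55% GC with runs under 12 bp, the share was at most 0.433%. The compared groups thus differ in run length too, and whether the letters themselves matter was not tested. In the other lists Klf2 and Dnmt3b had the run, both with a summit. The run was picked after the sequences were seen. It contains the shorter GC box, GGGCGG, which Sp and KLF factors are known to bind. On either strand that box was present in 7 of the 10 genes, 13 times in Klf4 and 5 times in Sox2, and in 65.8% of all genes. Nanog, Esrrb and Sall4 had none in this window. The pattern of 4 stretches of at least 3 G with 1 to 7 bases between them, on either strand, was present in 9 of the 10 genes, Sall4 being the exception, and in 55.2% of all genes.

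Other genes of the pluripotency network, in 3 lists, had a Chd1 KO summit within 1 kb of a TSS in 20 of 64 cases (31.2%, Wilson 95% interval 21.2 to 43.4%) and a control summit in 0, which allows up to 4.69%. Over all protein-coding genes it was 15.9% in Chd1 KO. The interval covers counting error only and is no test against that share. The lists were also chosen with earlier results of these data known. Their median GC content was 55.6%, above the 53.0% of the 10 genes and the 51.1% of all genes. Among other pluripotency transcription factors it was 8 of 26 (30.8%, 16.5 to 50.0%). They were Stat3, which carries the LIF signal, with a fold enrichment of 6.18, Zfp281 (5.33), Rest (4.41), Klf2 (4.4), Klf5 (4.37), Mybl2 (3.86), Nacc1 (3.73) and Tcf7l1 (3.62). Klf2 and Klf5, relatives of Klf4, had runs of 31 and 22 bp. The Stat3 summit was near an internal TSS of a transcript that is not protein-coding, and Stat3 was not counted with TSSs of protein-coding transcripts, with the outermost TSS or within 500 bp. Within 500 bp Klf2 was not counted either. The count was thus 7 of 26 with TSSs of protein-coding transcripts, beside 15.7% of all genes. Within 500 bp it was 6 of 26, beside 14.7%. From 1 kb before to 100 bp after a TSS only Rest and Tcf7l1 were left, 2 of 26 (7.69%) beside 10.3% of all genes, and with a fold enrichment of at least 5 only Stat3 and Zfp281, 2 of 26 beside 4.87%. The most GC-rich factor genes without a summit within 1 kb of a TSS were Foxd3 (60.4% GC), Etv5 (59.2%) and Etv4 (59.2%), although Foxd3 and Etv5 each had 1 in the gene body.

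Among signaling genes of ES cells it was 6 of 23 (26.1%, 12.5 to 46.5%). The fold enrichment was 5.78 at Ctnnb1, which encodes β-catenin, 4.63 at the LIF receptor gene Lifr, 4.58 at Fgfr1, 4.56 at Grb2, 4.18 at Spry2 and 3.57 at Fgf4. All 6 were counted from 1 kb before to 100 bp after a TSS as well, beside 10.3% of all genes. Ctnnb1 and Fgfr1 were not counted with the outermost TSS alone. Only Ctnnb1 was left with a fold enrichment of at least 5, beside 4.87% of all genes. Gsk3b (65.7% GC), Spry4 (60.7%) and Socs3 (59.4%) were the most GC-rich without one at a TSS. Among other genes of ES cells it was 6 of 15 (40%, 19.8 to 64.3%), with a fold enrichment of 6.5 at Tet2, 6.35 at Rif1, 6.25 at Alpl, 6.0 at Dnmt3b, 5.81 at Jarid2 and 3.88 at Trim28. Trim28 was not counted within 500 bp, from 1 kb before to 100 bp after a TSS or with a fold enrichment of at least 5. Lin28a (59.7% GC), Cdh1 (56.4%) and Dnmt3l (55.8%) had none within 1 kb of a TSS. A list of 15 lineage transcription factor genes was taken as silent or low in ES cells, although no expression was read here. Of these, 2 had a summit at a TSS (13.3%, 3.74 to 37.9%), Eomes with a fold enrichment of 4.32 and Gata4 with 4.30. Only Gata4 was counted from 1 kb before to 100 bp after a TSS. Neither was counted with the outermost TSS or a fold enrichment of at least 5. The brachyury gene T (61.7% GC), Sox7 (58.5%) and Gata6 (58.4%) had no summit within 1 kb of a TSS, and Gata6 had 1 in the gene body. The intervals of these 4 lists overlap each other and that of the 10 genes. No difference between lists, or from all genes, was tested.

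The share with a summit was also read by the longest GC run within the lists, which were chosen with earlier results of these data known. Of the 14 other pluripotency genes with a run of at least 20 bp, 13 had a Chd1 KO summit at a TSS (92.9%, 68.5 to 98.7%). Of the 50 with shorter runs 7 had one (14.0%, 6.95 to 26.2%). Among lineage transcription factor genes it was 1 of 2 (9.45 to 90.5%) and 1 of 13 (1.37 to 33.3%), intervals that overlap. Over all protein-coding genes the shares were 54.9% of 4162 and 7.00% of 18218. For the 10 pluripotency factor genes it was 2 of 2 and 0 of 8, and with so few genes the intervals reach from 34.2 to 100% and from 0 to 32.4%. With 1 A or T allowed inside a run, the split of the 10 genes was 2 of 5 and 0 of 5, because Esrrb, Prdm14 and Sall4 then reach 20 bp. It was 20 of 37 and 0 of 27 for the other pluripotency genes, and 37.5% of 9216 and 0.813% of 13164 for all genes. A split at a GC content of 60% also gave 2 of 2 and 0 of 8 for the 10 genes. It gave 8 of 11 and 12 of 53 for the other pluripotency genes, and 59.8% of 2332 and 10.8% of 20048 for all genes. In the lineage list it went the other way, with 0 of 1 and 2 of 14.

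**Figure D5:**
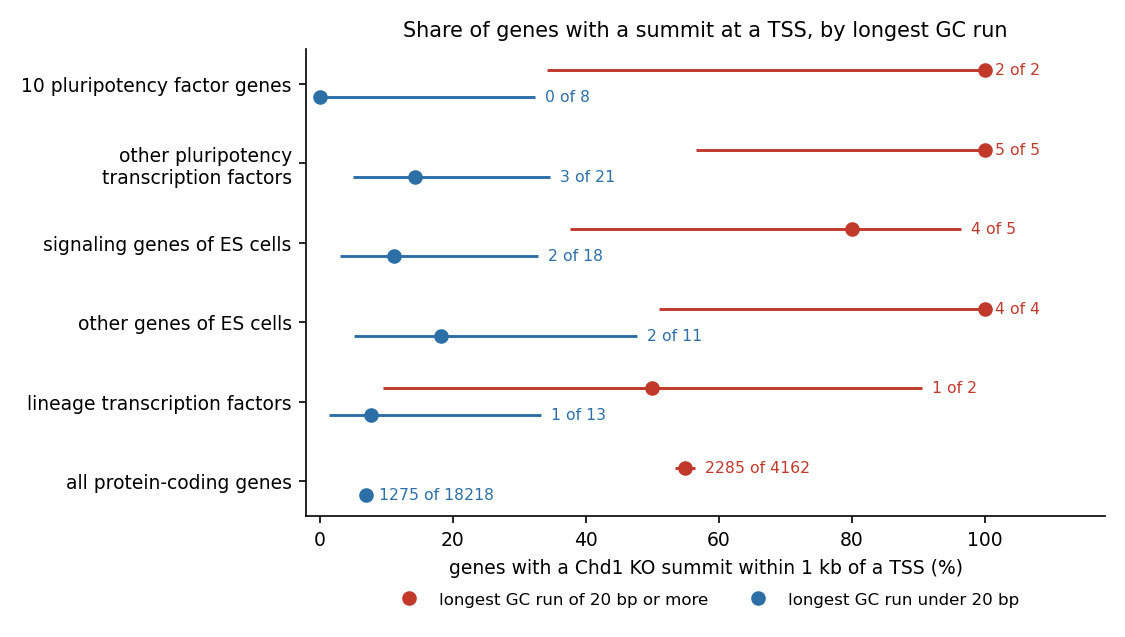
Share of genes with a Chd1 KO summit within 1 kb of a TSS (%, points, with Wilson 95% intervals) for each list and for all protein-coding genes, divided by a longest GC run of 20 bp or more (red) and under 20 bp (blue). The red point lies above the blue point in each list, 2 of 2 against 0 of 8 for the 10 genes and 54.9% against 7.00% for all genes, while the intervals of the lineage list overlap.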

How the data were processed

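DSB-seq of Chd1 KO and control ES cells was analyzed from 1 peak list per genotype. The authors mapped reads to mm9 with Bowtie2, dropped those with mapping quality under 13, kept 1 read per position, pooled both replicates, ran MACS2 with 0.05 as the limit on the q-value and left out blacklisted regions. The fold enrichment, the −log10 p-value and the −log10 q-value at each summit are deposited values of the authors. Fold enrichment is a ratio to the local background within a library, with 1 added to both the reads and the background. Reads and background at a summit were derived from the fold enrichment and the p-value, with an error of at most 0.000135 in −log10 p, after tests on simulated peaks.

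Summits were assigned to GENCODE M1 genes within 1 kb of any TSS, in the gene body and within 50 kb of either end. GC content was taken within 1 kb of the outermost TSS and GC runs within 1 kb of any TSS. No test was run, since no replicate values were used. Listed genes with a summit at a TSS, up to 8 per list, and the 3 most GC-rich without one were named. Members, lists and classes were chosen with earlier results of these data known. Sox1 was not matched, and of 2 Fgfr1 entries the longer was used. A listed gene is counted but not reported singly here. Chd1 and RNA Pol II ChIP-seq were not analysed here. Python 3.11.15, NumPy 2.4.6, SciPy 1.17.1, pandas 2.3.3, pysam 0.24.0 and Matplotlib 3.10.9 were used.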

Additional observations from a re-analysis of the deposited data

How the results depend on the processing

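Of 85 alternatives for 12 results, 65 left the count within 1.5 times or the median unchanged. All 23 on control summits gave 0 genes. With a fold enrichment of at least 5, genes with a Chd1 KO summit fell to 0 at a TSS, 0 in the gene body and 1 within 50 kb (Nanog, 1 summit), beside 4.87%, 5.04% and 16.5% of all protein-coding genes. At a TSS it left 8 other pluripotency genes and 1091 of all genes. With a window from 1 kb before to 100 bp after a TSS, the counts were 1 (Klf4), 13 and 2302. The paper took this window for its DSB-prone genes. The Klf4 summit lay in it only for an internal TSS, 577 bp upstream of that TSS, and 106 bp or more downstream of the other 3. Within 20 kb 2 genes and 2 summits were left, beside 29.4% of all protein-coding genes, and within 100 kb there were 5 genes and 7 summits, beside 55.1%. Protein-coding genes with 1 TSS, among them Zfp42, Tfcp2l1 and Prdm14, gave 936 of 9857 (9.50%), against 15.9% of all. The share rose with the number of TSSs, to 28.7% of genes with 8 or more. Median GC content was 58.4% within 500 bp, 53.5% from 1 kb before to 100 bp after the TSS and 57.6% at the most GC-rich TSS. The median longest run was 20.5 bp with 1 A or T allowed, which brought 5 genes to 20 bp, 12 bp within 500 bp and 13 bp at the outermost TSS. Why the share was lower among genes with 1 TSS was not tested. The other changes follow from fewer peaks, other windows or TSSs, or another run definition.

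No paired analysis was made and no replicate left out, because the lists used here combine the 2 replicates of each genotype and reads of single replicates were not used. Sites under 13 extended reads in Chd1 KO, or under about 16 in control at the lowest background, were not listed. The lists ended at a −log10 q of 1.77 in Chd1 KO and 2.54 in control, stricter than the authors' limit of 0.05 on q. These are therefore the lowest values seen and not a known limit of detection. With the lowest p-value of the control list applied to both, Chd1 KO summits were left at a TSS of 2 of the 10 genes and 3183 of all (14.2%), and within 50 kb of 4 of the 10 and 38.5% of all. At Sox2 and Klf4 a control signal nearly as high would still lie under the lowest p-value of the control list. No difference between genotypes was tested. Peaks removed as blacklisted cannot be seen.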

Other observations

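Pax6, a regulator of eye and neural development, was the only gene in the lists used here with a control summit within 50 kb. The control peak, chr2:105478849-105479082, lay 30.1 kb upstream of the nearest Pax6 TSS, with 23 extended reads over a background of 3.30 and a fold enrichment of 5.58. A Chd1 KO peak covered it, with its summit 17 bp away, 37 extended reads over 4.04 and a fold enrichment of 7.54. The control peak was 47.4% GC and held a GC run of 25 bp.

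The summit 86.3 kb upstream of Nanog was also the nearest Chd1 KO summit to Dppa3 (5.19 kb) and Gdf3 (11.1 kb), which lie in the same gene cluster of chromosome 6 and are active in ES cells. Its peak held a repeat of C and A of 19 bp and a GC run of only 11 bp.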
